A study of Mus musculus with 9 samples.

Results

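The miRNAs described here are miR-99a-5p, miR-99b-5p and miR-100-5p, which form the miR-99/100 family, and miR-125a-5p and miR-125b-5p, which form the miR-125 family. In the table of read counts they are named mmu-miR-99a-5p, mmu-miR-99b-5p, mmu-miR-100-5p, mmu-miR-125a-5p and mmu-miR-125b-5p. They were chosen by these names, with the row of the largest total where a name had several, and all 5 were found among 1052 mature miRNAs, of which 188 had enough counts to be tested. The study sequenced small RNAs of lateral cortex from C57BL/6 mice at E14.5 (embryonic day 14.5), sorted by the fluorescence of reporters R and G into 3 populations of 3 libraries each. Cells without either signal were the proliferating progenitors, which divide to renew themselves. R-positive, G-negative cells were the differentiating progenitors, which are committed to making neurons, and G-positive cells were the newborn neurons. The promoters that drive R and G, and the number of embryos behind a library, are not given in the sources used here. The labels do not say whether replicates came from separate embryos, so p-values measure only the spread between these libraries, which may be partly technical.

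A miRNA guides a silencing complex to messenger RNAs mainly through its seed, bases 2 to 8 from the 5′ end, so miRNAs with the same seed share most of their predicted targets. The miR-99/100 family is best known for repressing the kinase mTOR and the receptor IGF1R. The miR-125 family is the vertebrate counterpart of the nematode timing miRNA lin-4, represses the RNA-binding protein LIN28 and is abundant in neural tissue. Genes of both families lie together in 3 clusters of the mouse genome, each with a let-7 gene between them, an order that is conserved across many animals.

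The mature sequences are shown because 2 seeds sort the 5 miRNAs into their families and because several differ by very few bases. They are RefSeq sequences on GRCm38.p6, written 5′ to 3′ with the seed in capitals. The first lines give the miR-99/100 family, the next the miR-125 family with miR-351-5p, which has the same seed, and the last the let-7 miRNAs of the clusters.
miR-99a-5p: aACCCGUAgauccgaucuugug
miR-100-5p: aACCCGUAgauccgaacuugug
miR-99b-5p: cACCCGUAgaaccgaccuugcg
miR-125b-5p: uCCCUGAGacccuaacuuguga
miR-125a-5p: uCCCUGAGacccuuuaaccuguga
miR-351-5p: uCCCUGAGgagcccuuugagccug
let-7c-5p: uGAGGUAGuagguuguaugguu
let-7a-5p: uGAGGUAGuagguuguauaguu
let-7e-5p: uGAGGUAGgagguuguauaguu

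Positions below are counted from 1 at the 5′ end, with the base of the first-named miRNA first. miR-99a-5p and miR-100-5p differed by 1 substitution, U16A, and miR-99a-5p and miR-99b-5p by 4, A1C, U11A, U16C and U21C. All of these lie outside the seed. miR-125b-5p, of 22 bases, and miR-125a-5p, of 24, were identical over their first 13 bases. let-7c-5p and let-7a-5p differed by 1 substitution, G19A. How many mismatches the authors' counting allowed is not given in the sources used here, so reads shared between miR-99a-5p and miR-100-5p, or between let-7c-5p and let-7a-5p, could not be assessed. A RefSeq sequence was matched for 895 of 1059 mature names in the table. Among these, miR-99a-5p, miR-99b-5p and miR-100-5p were the 3 with the seed ACCCGUA, and miR-351-5p, with 4152 counts over all libraries, was the only one besides miR-125a-5p and miR-125b-5p with the seed CCCUGAG.

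On chromosome 16, Mir99a (77598936 to 77599000), Mirlet7c-1 (77599657 to 77599750) and Mir125b-2 (77646273 to 77646343) lay on the plus strand within introns of Mir99ahg, a long non-coding RNA gene, in GENCODE M21 on GRCm38. On chromosome 9, Mir100 (41531425 to 41531504), Mirlet7a-2 (41536716 to 41536811) and Mir125b-1 (41581926 to 41582002) had the same order on the plus strand, within introns of the long non-coding gene Mir100hg, listed there as 3110039I08Rik. On chromosome 17, Mir99b (17830188 to 17830257), Mirlet7e (17830352 to 17830444) and Mir125a (17830812 to 17830879) were packed into 692 bases on the plus strand of Spaca6, a protein-coding gene of sperm. The clusters on chromosomes 16 and 9 spanned 47408 and 50578 bases. Mir99b and Mirlet7e were intronic, and Mir125a overlapped an exon in 1 of 3 spanning transcripts of Spaca6. Mature miR-125b-5p has the same sequence from chromosomes 9 and 16, so its counts join both loci. In the same way let-7c-5p also comes from Mirlet7c-2 on chromosome 15 and let-7a-5p from Mirlet7a-1 on chromosome 13.

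Library totals over the counted miRNAs ran from 821155 to 3856484 and are not the sequencing depth, which is unknown. Levels are given as CPM, counts scaled to 1000000 per library and adjusted with TMM, a factor that balances the bulk of the miRNAs between libraries. These factors lay between 0.903 and 1.02 in 8 libraries and at 1.22 in newborn neuron replicate 3, which stood apart. A gate negative for both reporters also admits any other unlabelled cell, and summed markers of other cells differed between the populations. Of 3 erythroid miRNAs listed, the 2 in the table summed to 261 to 354 CPM in proliferating progenitors, against at most 2.86 CPM in any library of the other populations. Of 6 mural or mesenchymal markers, 4 were in the table and summed to 438 to 579 CPM in proliferating progenitors and to at most 43.4 CPM in any other library. miR-143-3p made up nearly all of this sum, with 429 to 566 CPM in proliferating progenitors. miR-143-5p, miR-145a-5p and miR-199a-5p had at most 7 counts in any library. Of 4 haematopoietic markers, the 2 in the table summed to 19.6 to 26.5 CPM in proliferating progenitors and at most 2.86 CPM elsewhere, and miR-142a-5p had 0 counts in all 3 neuron libraries. Nearly all of this sum was miR-142a-5p, since miR-223-5p had at most 1 count in any library. The single endothelial marker in the table, miR-126a-5p, ran from 18.4 to 26.2 CPM in proliferating progenitors and from 5.28 to 12.3 CPM elsewhere. Of 7 neuronal markers, the 5 in the table summed to 23516 to 28437 CPM in neurons, 6540 to 7755 in differentiating progenitors and 4130.0 to 5089 in proliferating progenitors. miR-7a-5p made up most of this sum, with 20623 to 24869 CPM in neurons and 2846 to 3854 CPM in proliferating progenitors. Of the others, miR-218-5p had 1281 to 1957 CPM in neurons and 1159 to 1189.9 CPM in proliferating progenitors. The progenitor marker miR-92b-5p ran from 312 to 392 CPM in proliferating progenitors and from 82.1 to 83.8 CPM in neurons. The listed markers not in the table were all 3p arms, namely miR-144-3p, miR-126a-3p, miR-142a-3p, miR-223-3p, miR-145a-3p, miR-214-3p, miR-124-3p, miR-128-3p and miR-92b-3p. The part of these cells in the results below was not tested. In sorted bulk samples, fewer cells of a type and less RNA per cell cannot be told apart.

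All 5 miRNAs were abundant among the 1052, of which only 560 had any count. By mean CPM over the 9 libraries the 5 ranked 3rd (miR-99a-5p), 7th (miR-99b-5p), 10th (miR-100-5p), 12th (miR-125b-5p) and 22nd (miR-125a-5p) of 1052. Their summed share of a library's counts was 6.59% ± 0.336 (SD, n = 3) in neurons, 8.51% ± 0.617 in differentiating progenitors and 7.84% ± 0.358 in proliferating progenitors. The neuron libraries, at 6.30% to 6.96%, lay below all progenitor libraries, at 7.52% to 8.97%. The miR-99/100 family held 6.20% to 7.35% of the counts in progenitor libraries and 4.50% to 5.40% in neuron libraries. The miR-125 family held 1.32% to 1.62% in progenitor libraries and 1.53% to 1.79% in neuron libraries, so that its ranges overlapped. miR-9-5p, at 514264 to 741478 CPM, made up most of the counts of every library, so all these shares also depend on its level.

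miR-99a-5p, the most abundant of the 5, fell from progenitors to neurons. Its level was 32168, 37381 and 31025 CPM in replicates 1 to 3 of the proliferating progenitors. It was 33972, 39199 and 41534 CPM in the differentiating progenitors. In the neurons it was 24927, 28662 and 17638 CPM. The progenitor populations overlapped, and every neuron library lay below every progenitor library. The means were 33525 ± 3388, 38235 ± 3872 and 23742 ± 5607 CPM (SD, n = 3). From differentiating progenitors to neurons the log2 change was -0.69 (SE 0.16, edgeR adjusted p = 0.00189), and from proliferating progenitors to neurons it was -0.50 (SE 0.16, edgeR adjusted p = 0.0118). Between the progenitor populations the log2 change was 0.19 (SE 0.16, edgeR adjusted p = 0.47). Without neuron replicate 3, the lowest library, the falls were smaller, -0.47 and -0.31 on the log2 scale, and still called (edgeR adjusted p = 0.00134 and 0.0132). The fall from proliferating progenitors lost its call when predicted miRNA rows were added to the table (log2 change -0.44, edgeR adjusted p = 0.0648).

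miR-100-5p, which differs from miR-99a-5p by a single base and comes from chromosome 9 alone, fell further. It measured 16738, 20605 and 18867 CPM in the proliferating progenitors. In the differentiating progenitors it measured 13385, 17914 and 17474 CPM, and in the neurons 9015, 9409 and 6139.5 CPM. The highest neuron library lay well below the lowest progenitor library, while the progenitor populations overlapped. Means were 18736 ± 1937, 16258 ± 2498 and 8188 ± 1785 CPM (SD, n = 3). The log2 change from differentiating progenitors to neurons was -0.99 (SE 0.16, edgeR adjusted p = 0.000143), and that from proliferating progenitors to neurons was -1.19 (SE 0.16, edgeR adjusted p = 9.79e-06). Between both progenitor populations the log2 change was -0.20 (SE 0.16, edgeR adjusted p = 0.459). Without neuron replicate 3 the falls to neurons were -0.78 and -1.01 on the log2 scale, and both remained called (edgeR adjusted p = 0.00018 and 7.13e-06).

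miR-99b-5p, the family member on chromosome 17, was not called in any comparison. It measured 14016, 15703 and 16819 CPM in the proliferating progenitors. The differentiating progenitors had 15468, 14181 and 18974 CPM, and the neurons 15667, 15435 and 13158 CPM. The 3 populations overlapped throughout, with means of 15513 ± 1411, 16208 ± 2481 and 14753 ± 1387 CPM (SD, n = 3). From proliferating progenitors to neurons the log2 change was -0.07 (SE 0.13, edgeR adjusted p = 0.667), and 2 SE to either side reached from -0.34 to 0.20. Its sign turned with the scaling, so no direction is given.

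miR-125b-5p, made from chromosomes 9 and 16, was likewise not called. Its levels were 12213, 14065 and 11451 CPM in the proliferating progenitors. They were 10756, 12775 and 13139 CPM in the differentiating progenitors. Neurons had 11447, 11706 and 11043 CPM. The neuron libraries lay inside the range of the differentiating progenitors, and the means were 12576 ± 1345, 12223 ± 1284 and 11399 ± 334 CPM (SD, n = 3). From proliferating progenitors to neurons the log2 change was -0.14 (SE 0.13, edgeR adjusted p = 0.357), with 2 SE to either side reaching from -0.39 to 0.11. The sign of this change also turned with total-count scaling. The table held a row for each of its 2 precursors, and the smaller row had 93.8% to 95.9% of the counts of the larger in all 9 libraries. The rows therefore do not tell the loci apart.

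miR-125a-5p, the least abundant of the 5, was higher in every neuron library than in every proliferating progenitor library, but missed the threshold. It stood at 2857, 3359 and 2724 CPM in the proliferating progenitors. Differentiating progenitors had 3064, 3248 and 4046 CPM, and neurons 3708, 3797 and 3684 CPM. The neuron values lay close together, inside the range of the differentiating progenitors. Means were 2980.0 ± 335, 3453 ± 522 and 3729.5 ± 59.5 CPM (SD, n = 3). From proliferating progenitors to neurons the log2 change was 0.32 (SE 0.14, edgeR adjusted p = 0.0553). In 13 of 21 alternative settings this comparison passed, with adjusted p-values over all 21 from 0.00436 to 0.196, so the call depends on the processing. These include the fits without replicate 2 of the proliferating progenitors, replicate 3 of the differentiating progenitors and replicate 2 or 3 of the neurons (log2 change 0.41, 0.38, 0.36 and 0.34, edgeR adjusted p = 0.0415, 0.0147, 0.0401 and 0.0266). The log2 change was 0.21 (SE 0.14, edgeR adjusted p = 0.353) between the progenitor populations and 0.11 (SE 0.14, edgeR adjusted p = 0.542) from differentiating progenitors to neurons.

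**Figure D1:**
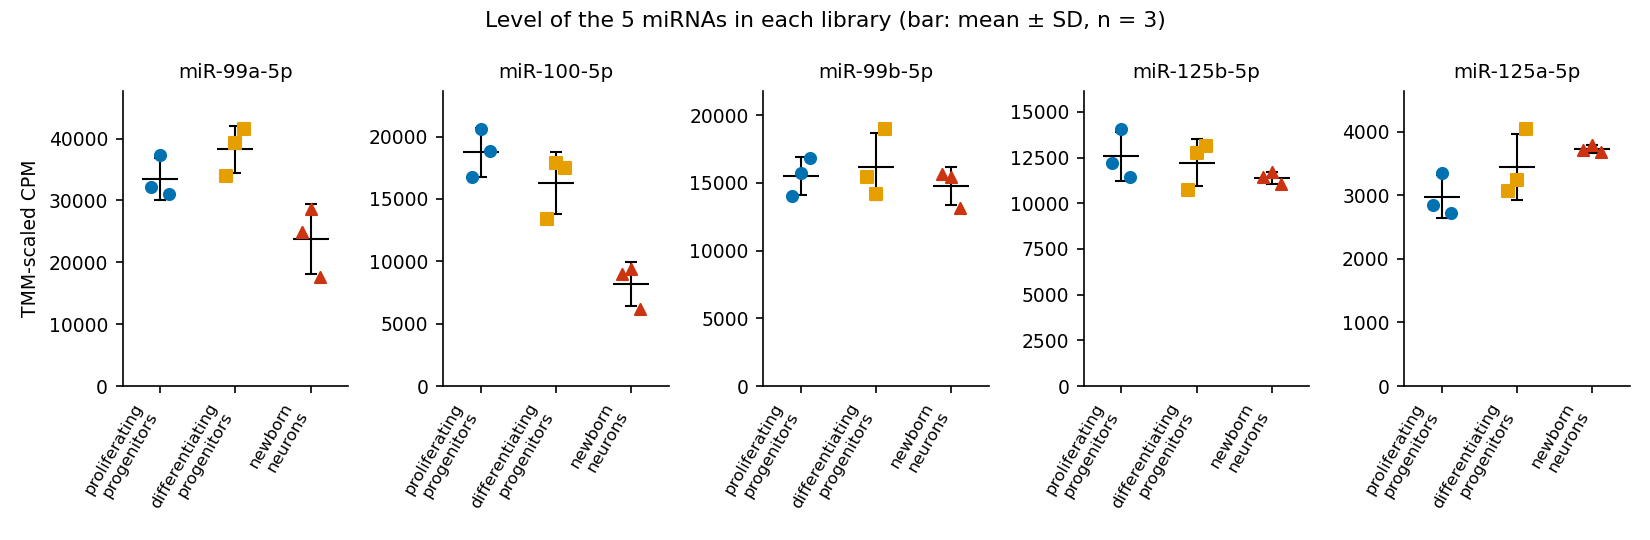
TMM-scaled CPM of the 5 miRNAs in each of the 9 libraries; each panel has its own vertical axis from 0, points are libraries in replicate order, and bars are the mean ± SD (n = 3). The neuron libraries of miR-99a-5p (17638 to 28662 CPM) and miR-100-5p (6139.5 to 9409 CPM) sit below all progenitor libraries, while miR-99b-5p and miR-125b-5p overlap between populations.

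The first step below is that from proliferating to differentiating progenitors, and the second that from differentiating progenitors to neurons. At the first step 0 of the 5 were called (edgeR adjusted p from 0.353 to 0.84), where 16.0% of the 188 tested miRNAs were, 7.98% higher and 7.98% lower. At an unadjusted p under 0.05 the count was also 0, and it was 0 with DESeq2. At the second step 2 of 5 were called, both lower, against 46.3% of all tested miRNAs called, 23.9% higher and 22.3% lower. From proliferating progenitors to neurons the same 2 were called lower, against 56.4% called, 29.8% higher and 26.6% lower. These shares of called members are close to the background, so nothing particular to the 5 is read from them. In the joint test of the 3 populations miR-100-5p (edgeR adjusted p = 2.56e-05) and miR-99a-5p (edgeR adjusted p = 0.00384) were called, where 58.5% of all tested miRNAs were. Libraries did not overlap for 0, 2 and 3 of the 5 miRNAs in these pairwise comparisons, against 32.4%, 49.5% and 64.4% of all tested miRNAs. The median log2 change of the 5 was 0.06, -0.14 and -0.14, beside 0.08, -0.06 and -0.05 over all 188.

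Other scalings moved the median of all tested miRNAs by up to 0.20 on the log2 scale, with upper-quartile factors at the first step. Relative to that median, the change of miR-100-5p from differentiating progenitors to neurons lay between -0.93 and -0.91 over 5 scalings, and that of miR-99a-5p between -0.63 and -0.61. Changes from proliferating progenitors to neurons, relative to the median, were -1.16 to -1.14 for miR-100-5p, -0.46 to -0.44 for miR-99a-5p and 0.37 to 0.38 for miR-125a-5p. They were -0.03 to -0.02 for miR-99b-5p and -0.10 to -0.08 for miR-125b-5p. A scaling factor moves all miRNAs of a library alike, so these ranges are narrow by construction and show no stability of a change.

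**Figure D2:**
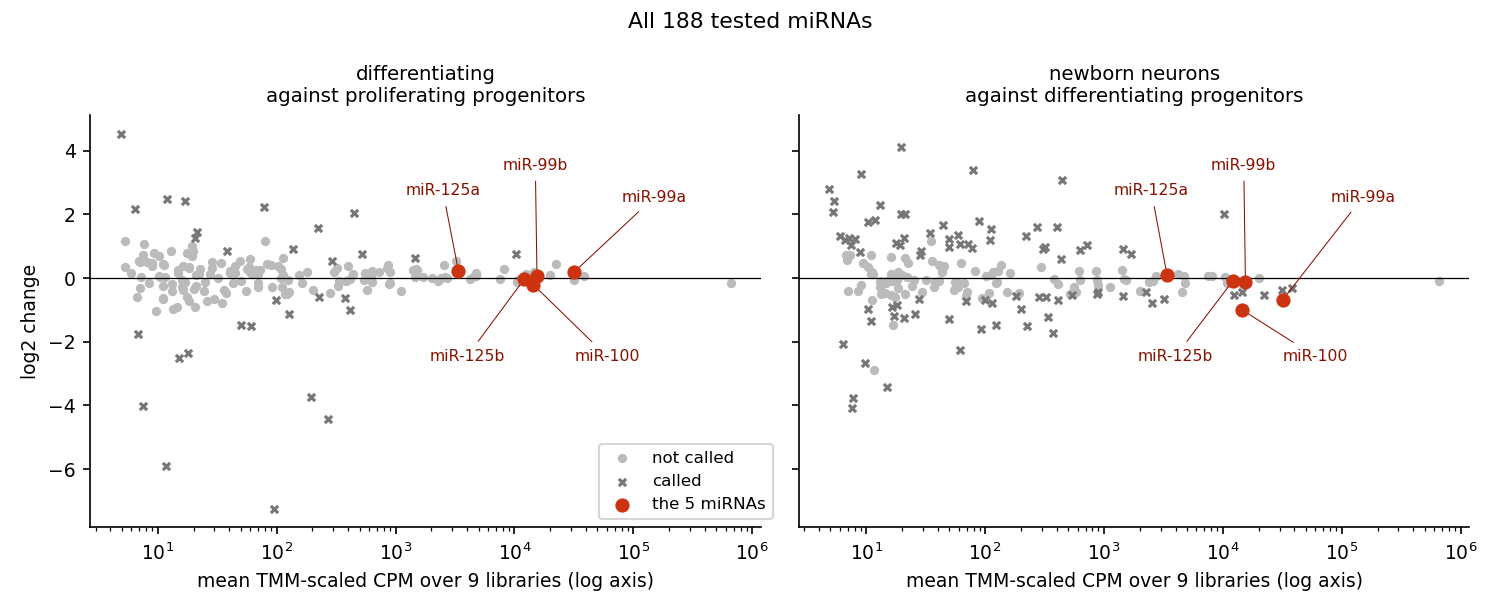
Log2 change of all 188 tested miRNAs at both steps of the lineage, against mean TMM-scaled CPM over the 9 libraries on a log axis; crosses were called at an edgeR adjusted p under 0.05, and the 5 miRNAs are red. At the second step miR-100-5p (-0.99) and miR-99a-5p (-0.69) lie below 0, and at the first step all 5 lie between -0.20 and 0.21.

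The order of the levels shifted along the lineage. In all 9 libraries miR-99a-5p was the highest and miR-125a-5p the lowest of the 5. miR-100-5p came next after miR-99a-5p in all 3 libraries of proliferating progenitors, 1.21-fold above miR-99b-5p by the means, although their ranges overlapped. In differentiating progenitors miR-100-5p and miR-99b-5p had nearly equal means and changed places between libraries. In all 3 neuron libraries miR-100-5p had dropped to the fourth place, below miR-99b-5p and miR-125b-5p, and the ranges of neighbours in the order did not overlap. Ligation of adapters favours some sequences, so an order of counts between miRNAs need not be the order of their molecules; how it differs between libraries is less affected.

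Within the miR-99/100 family, the share of miR-100-5p in the family's counts was 17.5% ± 0.782 (SD, n = 3) in neurons, 22.9% ± 1.97 in differentiating progenitors and 27.6% ± 0.893 in proliferating progenitors. Its libraries ran from 16.6% to 18.2%, 21.3% to 25.1% and 26.6% to 28.3% in the same order, without overlap. The share of miR-99b-5p was 32.0% ± 3.41 in neurons, 22.9% ± 2.65 in differentiating progenitors and 22.9% ± 2.03 in proliferating progenitors. miR-99a-5p held 50.5% ± 2.92, 54.1% ± 0.861 and 49.5% ± 2.56 in that order. Within the miR-125 family, miR-125a-5p held 24.7% ± 0.308, 22.0% ± 1.64 and 19.2% ± 0.167.

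**Figure D3:**
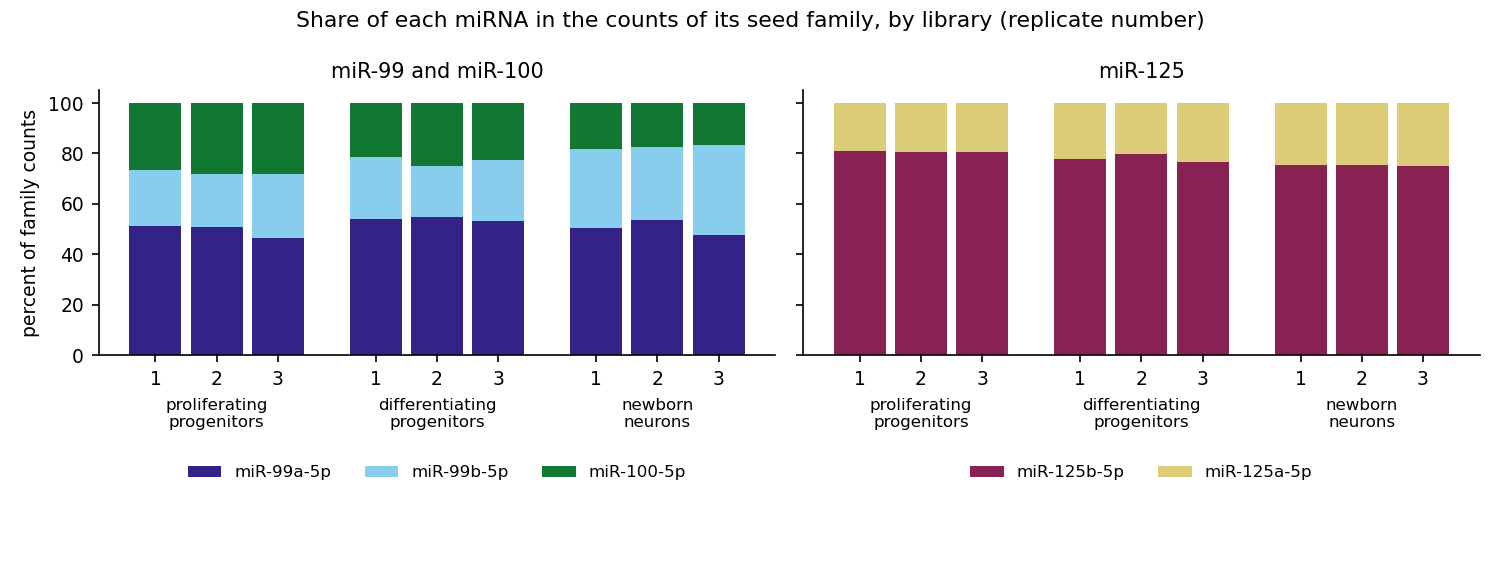
Percent of the counts of each seed family that each miRNA holds, by library, with replicate numbers under the bars; the left panel is the miR-99/100 family and the right panel the miR-125 family. The share of miR-100-5p is smaller in neurons (16.6% to 18.2%) than in proliferating progenitors (26.6% to 28.3%), and that of miR-125a-5p larger.

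Ratios of 2 miRNAs within a library need no scaling, since the library total cancels. In all, 8 ratios were compared among the populations with exact permutation tests over the 9 libraries, adjusted over the 8. The smallest p-value the test can give is 0.00357. For pairs of populations, 3 libraries against 3 cannot give less than 0.1, so differences between pairs are given by size with their SE, and none of the 24 passed (adjusted over 24, the lowest was 0.16).

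miR-99a-5p and miR-125b-5p come in part from the same chromosome 16 cluster, yet their ratio differed among the populations (exact permutation p = 0.00357, adjusted p = 0.00952). The log2 ratio was 1.40, 1.41 and 1.44 in libraries 1 to 3 of the proliferating progenitors, 1.66, 1.62 and 1.66 in those of the differentiating progenitors and 1.12, 1.29 and 0.68 in those of the neurons. The populations did not overlap, and the neuron libraries were far more spread. The mean difference was 0.23 (SE 0.02) at the first step, -0.62 (SE 0.18) at the second and -0.39 (SE 0.18) from proliferating progenitors to neurons. Without neuron replicate 3 the last of these was -0.21 and the second step -0.44. The call itself was lost in 3 of the 9 fits that each left out a library, those without replicate 1 of the proliferating progenitors or replicate 1 or 3 of the differentiating progenitors, where the adjusted p reached 0.0629.

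The pair on chromosome 9, miR-100-5p and miR-125b-5p, had the largest mean difference of the 8 ratios (exact permutation p = 0.00714, adjusted p = 0.0143). Its log2 ratio was 0.45, 0.55 and 0.72 in libraries 1 to 3 of the proliferating progenitors, 0.32, 0.49 and 0.41 in those of the differentiating progenitors and -0.34, -0.32 and -0.85 in those of the neurons. miR-100-5p thus had more counts than miR-125b-5p in every progenitor library and fewer in every neuron library. The mean difference was -0.91 (SE 0.18) from differentiating progenitors to neurons and -1.08 (SE 0.19) from proliferating progenitors, and -0.73 and -0.91 without neuron replicate 3. Since miR-125b-5p also comes from chromosome 16, neither this ratio nor the preceding one isolates a single cluster.

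On chromosome 17 miR-99b-5p and miR-125a-5p each come from 1 gene, with Mirlet7e between them, so this ratio does concern a single cluster. The log2 ratio was 2.29, 2.23 and 2.63 in libraries 1 to 3 of the proliferating progenitors, 2.34, 2.13 and 2.23 in those of the differentiating progenitors and 2.08, 2.02 and 1.84 in those of the neurons (exact permutation p = 0.025, adjusted p = 0.0333). Every neuron library was below every progenitor library, with a mean difference of -0.25 (SE 0.10) at the second step and -0.40 (SE 0.14) from proliferating progenitors. This call was lost in 8 of 9 fits that each left out a library, all except that without replicate 2 of the proliferating progenitors, and the adjusted p reached 0.181 without neuron replicate 3. Its adjusted p was 0.0741 with libraries permuted within replicate number, a coarser test with fewer arrangements.

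Paralogs in different clusters also changed their ratio. The log2 ratio of miR-99a-5p to miR-100-5p was 0.94, 0.86 and 0.72 in libraries 1 to 3 of the proliferating progenitors, 1.34, 1.13 and 1.25 in those of the differentiating progenitors and 1.47, 1.61 and 1.52 in those of the neurons, with no overlap (exact permutation p = 0.00357, adjusted p = 0.00952). The mean was 0.40 (SE 0.09) higher after the first step and a further 0.29 (SE 0.07) higher after the second. All 13 alternatives kept this call, including each fit without 1 library. For miR-125a-5p to miR-125b-5p the log2 ratio was -2.10, -2.07 and -2.07 in libraries 1 to 3 of the proliferating progenitors, -1.81, -1.98 and -1.70 in those of the differentiating progenitors and -1.63, -1.62 and -1.58 in those of the neurons, again without overlap (exact permutation p = 0.00357, adjusted p = 0.00952). Its mean was 0.25 (SE 0.08) higher after the first step and a further 0.22 (SE 0.08) higher after the second. Leaving out any library of the proliferating progenitors ended this call, with an adjusted p of at most 0.0686, while the difference from proliferating progenitors to neurons stayed between 0.45 and 0.47 in each fit without 1 library.

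**Figure D4:**
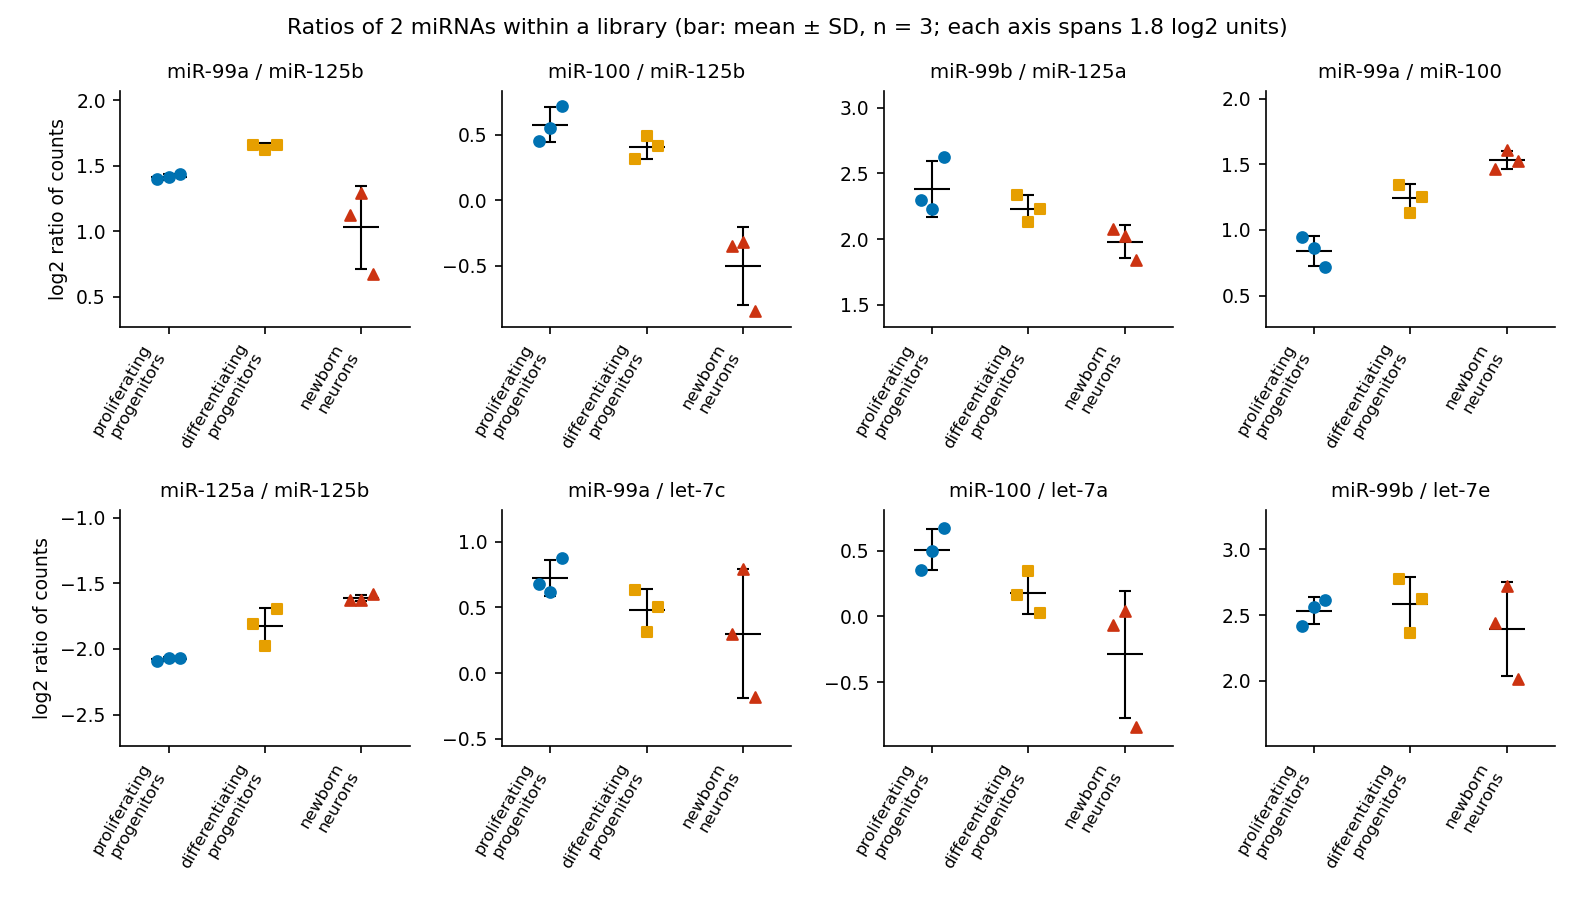
Log2 ratio of the counts of 2 miRNAs in each library, for the 3 locus pairs, the 2 paralog pairs and the 3 pairs with a let-7 miRNA; points are libraries, bars the mean ± SD (n = 3), and each vertical axis spans 1.8 log2 units. The ratio of miR-99a-5p to miR-100-5p steps up from 0.72 to 0.94 in proliferating progenitors to 1.47 to 1.61 in neurons, and that of miR-100-5p to miR-125b-5p turns negative in neurons.

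The let-7 miRNAs of the clusters, which repress growth and cell cycle regulators and rise with developmental age in many tissues, were compared with their neighbours. let-7e-5p, which comes from the chromosome 17 cluster alone, was not called in any comparison (2674 ± 60.9, 2702 ± 415 and 2829 ± 466 CPM in the 3 populations, SD, n = 3). In the main fit miR-99b-5p and miR-125a-5p were not called either. However, miR-125a-5p from proliferating progenitors to neurons (edgeR adjusted p = 0.0553) passed in 13 of 21 alternatives. let-7c-5p had 20451 ± 3764, 27604 ± 5035 and 18962 ± 2083 CPM (SD, n = 3) and fell at the second step (log2 change -0.54, SE 0.16, edgeR adjusted p = 0.00935), a call lost in 5 of 21 alternatives, among them those without replicate 2 or 3 of the differentiating progenitors or replicate 2 of the neurons (edgeR adjusted p up to 0.0895 over all 21). Its first-step change of 0.43 (SE 0.16, edgeR adjusted p = 0.0732) passed in 8 of 21, among them those without replicate 2 of the proliferating progenitors, replicate 1 of the differentiating progenitors or replicate 3 of the neurons. let-7a-5p had 13181 ± 1380, 14417 ± 2618 and 9867 ± 1011 CPM (SD, n = 3). It fell at the second step (log2 change -0.55, SE 0.14, edgeR adjusted p = 0.00532), a call lost without replicate 3 of the differentiating progenitors (edgeR adjusted p = 0.0681). From proliferating progenitors to neurons its log2 change was -0.42 (SE 0.14, edgeR adjusted p = 0.0205), a call lost in 7 of 21 alternatives, among them those without replicate 2 of the proliferating progenitors or replicate 1 or 2 of the neurons (edgeR adjusted p up to 0.269 over all 21).

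The ratio of miR-100-5p to let-7a-5p differed among the populations (exact permutation p = 0.0107, adjusted p = 0.0171), with log2 means of 0.51 ± 0.16, 0.18 ± 0.16 and -0.29 ± 0.48 (SD, n = 3). In the neurons it was -0.06, 0.04 and -0.84. The mean difference was -0.47 (SE 0.29) at the second step and -0.80 (SE 0.29) from proliferating progenitors to neurons, and -0.19 and -0.52 without neuron replicate 3. This call was lost in 5 of 9 fits without 1 library, namely without any of the proliferating progenitors or replicate 1 or 3 of the differentiating progenitors, with an adjusted p up to 0.0857. The ratio of miR-99a-5p to let-7c-5p was 0.72 ± 0.14, 0.48 ± 0.16 and 0.30 ± 0.49 on the log2 scale (exact permutation p = 0.325, adjusted p = 0.371). Its mean difference at the second step turned from -0.18 (SE 0.30) to 0.063 without neuron replicate 3, and that from proliferating progenitors to neurons went from -0.42 (SE 0.29) to -0.18. Of the 13 alternatives it passed only without neuron replicate 2, its highest neuron library (adjusted p = 0.019). miR-99b-5p to let-7e-5p gave 2.53 ± 0.10, 2.59 ± 0.21 and 2.39 ± 0.36 (exact permutation p = 0.661, adjusted p = 0.661). From proliferating progenitors to neurons its mean difference turned from -0.14 (SE 0.22) to 0.049 without neuron replicate 3. In all 3 let-7 ratios the third neuron library was the lowest of the 9.

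**Figure D5:**
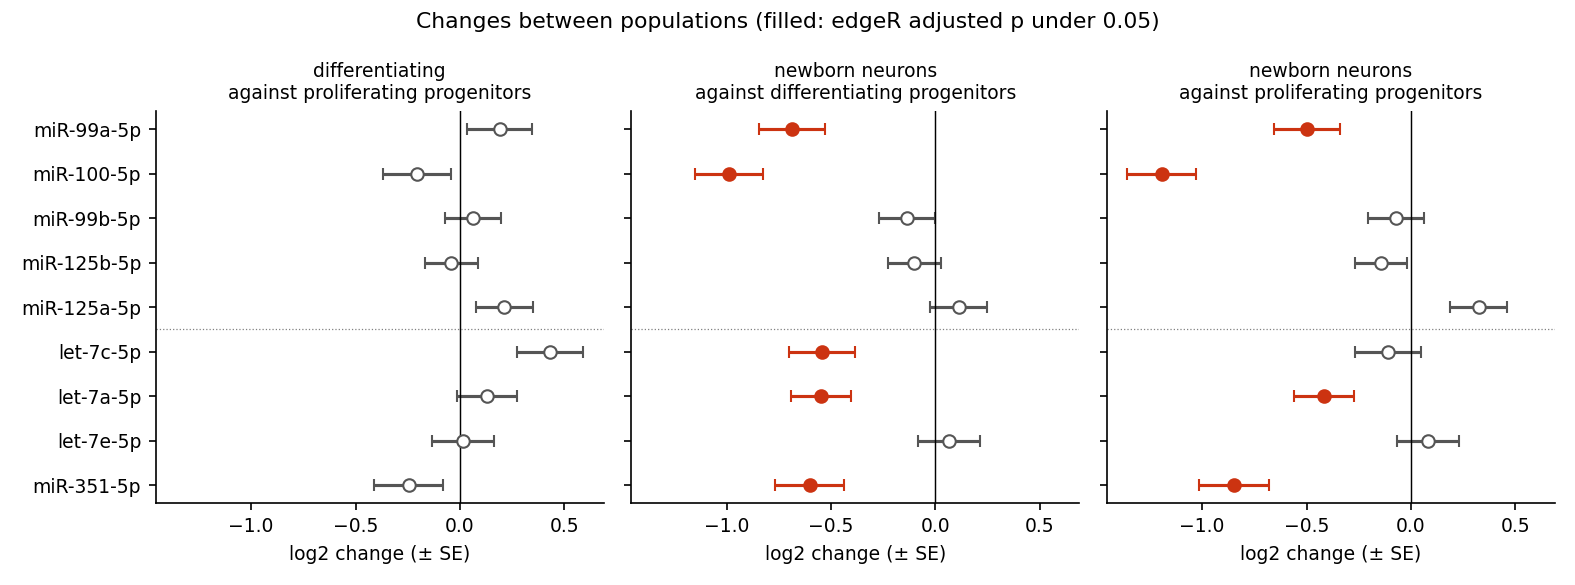
Log2 changes with their SE in the 3 pairwise comparisons for the 5 miRNAs, the let-7 miRNAs of their clusters and miR-351-5p; filled points had an edgeR adjusted p under 0.05. In both comparisons with neurons miR-100-5p (-0.99 and -1.19) and miR-99a-5p (-0.69 and -0.50) are filled, and in the comparison of the progenitor populations no point is.

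Among relatives outside the clusters, miR-351-5p, an X-linked miRNA with the seed of miR-125, fell in neurons. It measured 385, 395 and 453 CPM in the proliferating progenitors. Differentiating progenitors had 361, 299 and 378 CPM, and neurons 198, 224 and 264 CPM. The neuron libraries lay below all others. The log2 change from proliferating progenitors to neurons was -0.85 (SE 0.17, edgeR adjusted p = 0.000334). At the second step it was -0.60 (SE 0.17, edgeR adjusted p = 0.00684), a call lost with both total-count scalings. At 0.0249% of neuron counts it added little to the sum over its seed, which with miR-351-5p ran from 1.36% to 1.61%, 1.44% to 1.65% and 1.55% to 1.83% of counts in the 3 populations. miR-10a-5p and miR-10b-5p, Hox cluster miRNAs of the wider miR-10/100 group that mark caudal tissue, had at most 13 and 16 counts in a library and were not tested. None of the 3p arms of the 5 miRNAs or of the 3 let-7 genes had a row under its name among the rows used. They were therefore not analysed, and the ranks and shares leave them out.

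Likeness of pattern was measured by Pearson's correlation of log2 CPM over the 9 libraries with the 81 other tested miRNAs of at least 100 CPM on average, as a description, since the points share their libraries and scaling. For miR-99a-5p the most alike were let-7i-5p (r = 0.991), miR-301a-5p (r = 0.895) and miR-100-5p (r = 0.894). For miR-100-5p they were let-7j (r = 0.985), let-7f-5p (r = 0.950) and miR-504-5p (r = 0.940). For miR-99b-5p the highest values were lower, with miR-1981-5p (r = 0.776), miR-26a-5p (r = 0.764) and miR-744-5p (r = 0.672). For miR-125a-5p they were miR-181a-5p (r = 0.830), miR-672-5p (r = 0.819) and miR-484 (r = 0.771), and for miR-125b-5p let-7i-5p (r = 0.704), let-7a-5p (r = 0.704) and let-7f-5p (r = 0.698). let-7a-5p has a gene in the chromosome 9 cluster with Mir125b-1. Between the members of a cluster, r was 0.652 for miR-99a-5p with miR-125b-5p, 0.651 for miR-100-5p with miR-125b-5p and 0.217 for miR-99b-5p with miR-125a-5p.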

How the data were processed

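The authors deposited raw read counts, as 1 whole-number column per library. The submitters' processing notes name bcl2fastq 1.8.2, DESeq2 and mm10. Aligner, counter and miRNA release are not given in the sources used here. Per the labels' protocols, libraries were made from total RNA with the NEBNext small RNA kit.

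Of 1433 rows, 1211 with a database accession were used. For each mature name the row with the largest total was kept, and 7 groups of names whose counts differed by at most 2% were merged. edgeR 4.0.16 in R 4.3.3 was run on all 9 libraries (filterByExpr, TMM, quasi-likelihood test), with Benjamini-Hochberg adjustment over 188 miRNAs holding 99.97% of the counts and a threshold of 0.05. SEs follow from the log2 change and F. The common biological coefficient of variation was 0.161, whereas counting error alone was at most 2.19% for a count of the 5 miRNAs. Ratios were tested by two-sided exact permutation of libraries (numpy, scipy 1.17.1). The fits were tested on simulated data. Alternatives covered scaling, filter, row set, tool (DESeq2 1.42.0), library and replicate number.

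The 5 miRNAs, their relatives, the marker lists and the rule for most alike miRNAs (3 per miRNA, at least 100 CPM) were chosen with earlier results of these data known.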

Additional observations from a re-analysis of the deposited data

How the results depend on the processing

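Across 21 alternatives, miR-100-5p kept its fall to neurons from either progenitor population, and miR-99a-5p kept its fall from differentiating progenitors. miR-99a-5p from proliferating progenitors lost its call with predicted rows included (log2 change -0.44). For miR-125a-5p from proliferating progenitors to neurons, the log2 change passed the threshold with DESeq2 size factors (0.35), total counts (0.52), total counts without miR-9-5p (0.43), the DESeq2 test (0.35), at least 10 counts in every library (0.39), every row with an accession (0.44), no merging (0.33), predicted rows (0.38) and only both populations compared (0.35). Its joint test passed with total counts (adjusted p = 0.0143), total counts without miR-9-5p (0.0149), DESeq2 (0.0392) and every row with an accession (0.0243).

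Signs of uncalled changes turned as follows. For miR-99b-5p, total counts without miR-9-5p gave -0.019, 0.048 and 0.029 at the first step, the second step and over both; over both, total counts gave 0.11 and every row 0.042. For miR-125b-5p at the first step, total counts gave 0.0254, upper-quartile factors 0.16 and every row 0.060; at the second, total counts gave 0.0255 and total counts without miR-9-5p 0.088; over both, total counts gave 0.051. For miR-125a-5p at the second step upper-quartile factors gave -0.070. Over both steps let-7c-5p was 0.093 with total counts, 0.0059 without miR-9-5p and 0.013 with every row. let-7e-5p was -0.072 without miR-9-5p and -0.027 with predicted rows at the first step, and -0.10 with upper-quartile factors at the second. The cause of these moves was not tested.

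Leaving out 1 library at a time, miR-99b-5p ran from -0.078 to 0.16, -0.21 to 0.060 and -0.14 to 0.010 in the 3 comparisons. miR-125b-5p ran from -0.11 to 0.048 at the first step and -0.16 to 0.019 at the second. miR-125a-5p over both steps ran from 0.26 to 0.41 and was called in 4 of the 9 fits, and the adjusted p of its joint test from 0.0323 to 0.401. let-7c-5p over both steps ran from -0.23 to 0.034, let-7a-5p at the first from -0.028 to 0.24, and let-7e-5p from -0.11 to 0.12, -0.0283 to 0.27 and -0.0275 to 0.25. Adjusted p-values of the ratios ran from 0.0114 to 0.0629 for miR-99a-5p to miR-125b-5p, 0.0381 to 0.181 for miR-99b-5p to miR-125a-5p and 0.019 to 0.665 for miR-99a-5p to let-7c-5p. They ran from 0.0114 to 0.0857 for miR-100-5p to let-7a-5p and from 0.0114 to 0.0686 for miR-125a-5p to miR-125b-5p.

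Replicate numbers were not taken to pair the libraries, since the labels do not say whether they mark a shared litter or sort. Deviations of same-numbered libraries from their population means did not all correlate positively. Same-numbered libraries of differentiating progenitors correlated at 0.021 to 0.25 with proliferating progenitors and at 0.098 to 0.22 with neurons, all positive, while proliferating progenitors and neurons gave -0.07 to -0.06. Other pairs gave -0.26 to 0.12, and not every library correlated best with its own number. Pairing with the differentiating progenitors therefore cannot be told from these values alone. A replicate block gave 33, 88 and 108 calls over all miRNAs in place of 30, 87 and 106 and changed no call of the 5 miRNAs. Of the ratios, the block ended the call of miR-99b-5p to miR-125a-5p (adjusted p = 0.0741). Permuting within replicate number allows fewer arrangements than the main test, so its smallest possible p-value is larger. Counting error was at most 2.19% for a count of the 5 miRNAs, beside coefficients of variation between replicates of 1.59% to 23.6%.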
